A study of Mus musculus with 391 samples.

Results

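Dendritic cell identity genes are described here in single cells of the mouse brain vasculature. The set holds 9 of the 56941 genes in the count table: Flt3, Irf4, Zbtb46, Cd209a, Clec10a, Napsa, Mcemp1, Xcr1 and Ccr7. They were taken by symbol, 8 of them had at least 1 read in some cell, and 7 reached 10 or more reads in at least 1 cell labelled microglia. Cells that carried several of the genes together were then looked for, and the remaining transcripts of those cells were examined. The 9 genes were chosen by their read counts in these same cells, and the cells carrying several of them by the same counts, so the levels of the 9 genes are a description and were not tested.

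The cells came from brains of adult mice, whose vascular fragments were freed by mechanical and enzymatic dissociation, digested further to single cells and sorted, 1 to a well. Libraries were made by Smart-seq2, which reads whole transcripts and carries no molecular identifiers. The labels divide the 391 cells into 280 microglia and 111 endothelial cells. Genotype, strain, sex, treatment, sorting markers and number of mice are not stated in the sources used here. Each class was therefore taken as a single sample whose cells are not replicates, and neither p-values nor standard errors are given. The column names show 4 plates, called A to D here: microglia came from plate A (133 cells) and plate B (147 cells), endothelial cells from all 4. Microglia-class cells held 39876 to 504875 gene reads (median 146506) and endothelial cells 83954 to 602175 (median 174345). Levels are given as reads in a cell or as CPM, the standard depth-scaled count, here computed from pooled cells: the group's reads of the gene relative to its reads of all genes. Intervals in parentheses are exact 95% intervals (Poisson for CPM, Clopper-Pearson for shares of cells, conditional binomial for ratios). They cover counting error only, and PCR copies and reads of 1 cell are not independent molecules.

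Dendritic cells take up antigen, present it on MHC class II molecules and carry it to T cells. Conventional dendritic cells arise in the bone marrow under the growth factor FLT3 ligand, and fall into a cDC1 branch, which depends on IRF8 and BATF3 and displays the chemokine receptor XCR1, and a cDC2 branch, in which IRF4 acts and C-type lectins are common. In the brain they are known from the meninges, the choroid plexus and the perivascular spaces and are sparse in the parenchyma, where microglia are the resident macrophages. Macrophages at the borders of the brain share several surface lectins with dendritic cells, so single markers do not part these cells.

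The 250 bases before the transcription start are shown for Cd209a and Mcemp1, which lie near each other and were carried together by 16 cells, and for Flt3 and Irf4, the growth receptor and the transcription factor of the set. In myeloid genes such windows often hold sites of the ETS-family factor PU.1. The sequences are from the RefSeq promoter table (build GRCm38.p6, 5′ to 3′ on the strand of the gene), which matched 6 of the 9 genes. Capitals mark GGAA or its complement TTCC, the core letters of ETS motifs. The windows are, for Cd209a, chr8:3748985-3749234 (minus strand), for Mcemp1, chr8:3665512-3665761 (plus strand), for Flt3, chr5:147400490-147400739 (minus strand) and for Irf4, chr13:30748983-30749232 (plus strand).
Cd209a: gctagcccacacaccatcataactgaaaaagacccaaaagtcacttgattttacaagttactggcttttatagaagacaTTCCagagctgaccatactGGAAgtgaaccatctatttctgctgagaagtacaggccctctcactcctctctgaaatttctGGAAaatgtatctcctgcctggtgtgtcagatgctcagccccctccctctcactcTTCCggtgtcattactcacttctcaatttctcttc
Mcemp1: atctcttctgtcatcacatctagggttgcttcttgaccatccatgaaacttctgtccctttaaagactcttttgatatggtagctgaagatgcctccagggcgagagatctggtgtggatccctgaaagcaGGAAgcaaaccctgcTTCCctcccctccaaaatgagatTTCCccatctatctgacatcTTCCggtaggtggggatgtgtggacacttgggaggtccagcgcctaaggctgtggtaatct
Flt3: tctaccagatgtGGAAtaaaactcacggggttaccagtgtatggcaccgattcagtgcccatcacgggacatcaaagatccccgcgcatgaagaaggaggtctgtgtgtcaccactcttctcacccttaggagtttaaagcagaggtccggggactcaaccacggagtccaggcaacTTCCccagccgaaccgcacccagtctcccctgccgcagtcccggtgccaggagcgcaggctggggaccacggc
Irf4: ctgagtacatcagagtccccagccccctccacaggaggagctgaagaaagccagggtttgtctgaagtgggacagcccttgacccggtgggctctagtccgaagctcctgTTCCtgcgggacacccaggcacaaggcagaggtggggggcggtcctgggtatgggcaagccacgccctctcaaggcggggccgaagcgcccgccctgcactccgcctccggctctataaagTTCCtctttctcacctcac

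Cd209a and Mcemp1 each had 4 matches to GGAA on either strand, and Flt3 and Irf4 each had 2. Such matches are common, with at least 1 in 93.4% of 32851 promoter windows of the same length and a median of 3. The ETS-IRF composite element, whose consensus was found in 2.30% of all windows on either strand and contains the letters GGAA, was in none of the 6 windows, nor was the interferon-stimulated response element (2.98% of all windows). TATAAA, found in 12.4% of all windows on either strand, occurred once each in the Cd209a and Irf4 windows and in that of Xcr1, not shown. In the GENCODE M21 annotation Cd209a and Mcemp1 are neighbours on chromosome 8, with 74.1 kb from the end of Mcemp1 to Cd209a and the genes Fcor, Trappc5, Fcer2a and Clec4g between them. Of these 4 genes, Trappc5, a trafficking protein, was at 10 or more reads in 13 of the 25 cells described below and in 29 of the other 255, while Fcor reached that level in 3 of the 25, and Fcer2a and Clec4g each in 1.

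Of the 280 microglia-class cells, 156 had none of the 9 genes at 10 or more reads, 75 had 1, 24 had 2, and 25 had 3 or more, with 6 the most in any cell. The last group was 8.93% of the class (5.86 to 12.9%). On plate A it was 9 of 133 cells (6.77%, 3.14 to 12.5%) and on plate B 16 of 147 (10.9%, 6.35 to 17.1%), and these intervals overlap. No endothelial cell had 3 of the genes, and 1 of 111 had 2, a plate C cell with Napsa and Zbtb46. The 25 cells are called the several-gene cells in what follows. They were sequenced more deeply than the other 255 cells (median 206432 against 134543 reads) and had more genes detected (median 3623 against 2619). When every cell was reduced at random to 70000 reads, 34 shallower cells were left out, none of them a several-gene cell. Of the remaining 246 cells, 23 had 3 or more of the genes. Thinning only removes reads, so no cell outside the 25 could have joined. It shows only that 23 of the 25 still held 3 or more of the genes at that depth.

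**Figure D1:**
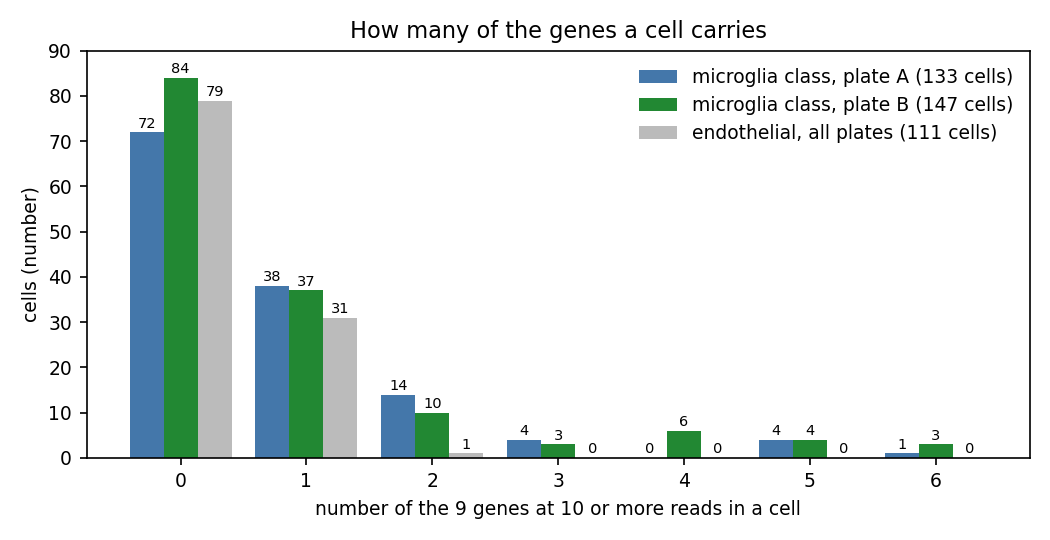
Number of cells (vertical axis) by how many of the 9 genes they held at 10 or more reads (horizontal axis), for the microglia class of plates A and B and for endothelial cells of all plates. Cells with 3 or more of the genes are seen in both microglia-class plates and in no endothelial cell.

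Flt3, the receptor tyrosine kinase that keeps dendritic progenitors and conventional dendritic cells growing, was at 10 or more reads in 15 of 280 microglia-class cells (5.36%, 3.03 to 8.68%). In the several-gene cells its reads ran from 0 through a median of 17 to 330, and 13 of 25 cells passed 10 reads. Among the other 255 cells 2 passed, with a highest value of 101 reads. No endothelial cell held more than 1 Flt3 read. Pooled levels were 219 CPM (207 to 231) in the several-gene cells, 6.32 CPM in the other microglia-class cells and 0.234 CPM in endothelial cells.

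Irf4, a transcription factor of cDC2 cells that B and T cells also use, was at 10 or more reads in 20 microglia-class cells. Its reads in the several-gene cells ran from 0 through a median of 2 to 525, with 11 of 25 past 10 reads, and 9 of the other 255 cells passed as well, up to 463 reads. The groups thus overlapped across nearly the whole range, and 6 cells carried Irf4 with none of the other 8 genes. Pooled levels were 347 CPM in the several-gene cells, 27.2 CPM in the other microglia-class cells and 0.0468 CPM in endothelial cells.

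Zbtb46, a zinc finger transcription factor of committed conventional dendritic cells that is also known from endothelium, was the only gene of the 7 carried by microglia-class cells that was higher in endothelial cells. There it stood at 213 CPM (207 to 219), with 32 of 111 cells at 10 or more reads and a highest value of 443. In the microglia class 12 cells passed 10 reads, 5 of the 25 several-gene cells (101 CPM, 0 to 325 reads) and 7 of the other 255 (28.7 CPM, 0 to 500 reads). All 5 of those several-gene cells were from plate B (5 of 16), and none of the 9 from plate A passed. The log2 ratio of several-gene over other microglia-class cells was accordingly -3.24 on plate A and 1.99 on plate B. In endothelial cells 0 of 7 passed on plate A, 2 of 10 on plate B, 17 of 50 on plate C and 13 of 44 on plate D. The 12 microglia-class carriers held 0 reads of Cdh5 (VE-cadherin), at most 1 of Plvap and at most 2 of Pecam1. The 32 endothelial carriers had 67 to 2348 Plvap reads (median 1627). Of other endothelial genes, the microglia-class carriers held up to 5 reads of Flt1, 2 of Emcn and 10 of Cldn5. For Cldn5, 1 of the 12 reached 10 reads, within the range of the endothelial carriers (8 to 192, median 54).

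Cd209a, a C-type lectin related to human DC-SIGN, was the most abundant of the set. Its reads in the several-gene cells ran from 0 through a median of 864 to 1481, and 24 of 25 cells passed 10 reads. Among the other 255 cells 21 passed, with a median of 1 read over all of them and a highest value of 1241, so single cells outside the group reached its range. Pooled levels were 3037 CPM (2993 to 3081) in the several-gene cells, 210 CPM in the other microglia-class cells and 0.140 CPM in endothelial cells. The annotated Cd209a transcripts share none of their 1528 stretches of 50 bases with Cd209b, Cd209c, Cd209d, Cd209e, Cd209f or Cd209g.

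Clec10a, a galactose-binding C-type lectin found on cDC2 cells and on macrophages, had the widest spread over the microglia class, with 93 of 280 cells at 10 or more reads (33.2%). In the several-gene cells its reads ran from 0 through a median of 71 to 422 (16 of 25 cells past 10 reads), and in the other 255 cells up to 665 (77 cells). Pooled levels were 513 CPM and 316 CPM. Of the 93 carriers, 57 held it as the single gene of the set, and it was at 976 CPM in the several-gene cells of plate A and 349 CPM in those of plate B. The log2 ratio of several-gene over other microglia-class cells was 1.84 on plate A and 0.03 on plate B. Its annotated transcripts share 242 of 2803 stretches of 50 bases (8.63%) with the neighbouring lectin gene Mgl2, so reads of these 2 genes may not be wholly separate.

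Napsa, which encodes the aspartic protease napsin A, was at 10 or more reads in 24 of the 25 several-gene cells (0 to 469 reads, median 319) and in 6 of the other 255 cells, up to 517 reads. Pooled levels were 1143 CPM, 36.1 CPM and, in endothelial cells, 6.37 CPM, the last coming almost wholly from 1 plate C cell with 135 reads. Mcemp1, a small lectin-like membrane protein named for mast cells, had the sharpest contrast, at 10 or more reads in 16 several-gene cells (0 to 239 reads, median 68) and in 1 of the other 255, a plate B cell with 80 reads. Pooled levels of Mcemp1 were 340 CPM and 2.36 CPM, and no endothelial cell had a read of it.

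Xcr1, the chemokine receptor of cDC1 cells, had 0 reads in all 391 cells. Ccr7, the receptor with which mature dendritic cells follow lymphatic chemokines to lymph nodes, had 0 reads in the microglia class and 1 read in an endothelial cell. A count of 0 among 280 cells allows a share of up to 1.07% of cells with a read when the limit is set at 3 cells, and the two-sided exact interval reaches 1.31%. Divided by exon length (GENCODE M21), the order of the genes in the several-gene cells was Cd209a at 1919 CPM per kb of exon, Napsa at 430, Mcemp1 at 227, Clec10a at 177, Irf4 at 70.8, Flt3 at 35.4 and Zbtb46 at 11.8. In the other microglia-class cells Cd209a (133 CPM per kb) and Clec10a (109) led, with Napsa at 13.6 and the remaining 4 genes at 5.55 or less.

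**Figure D2:**
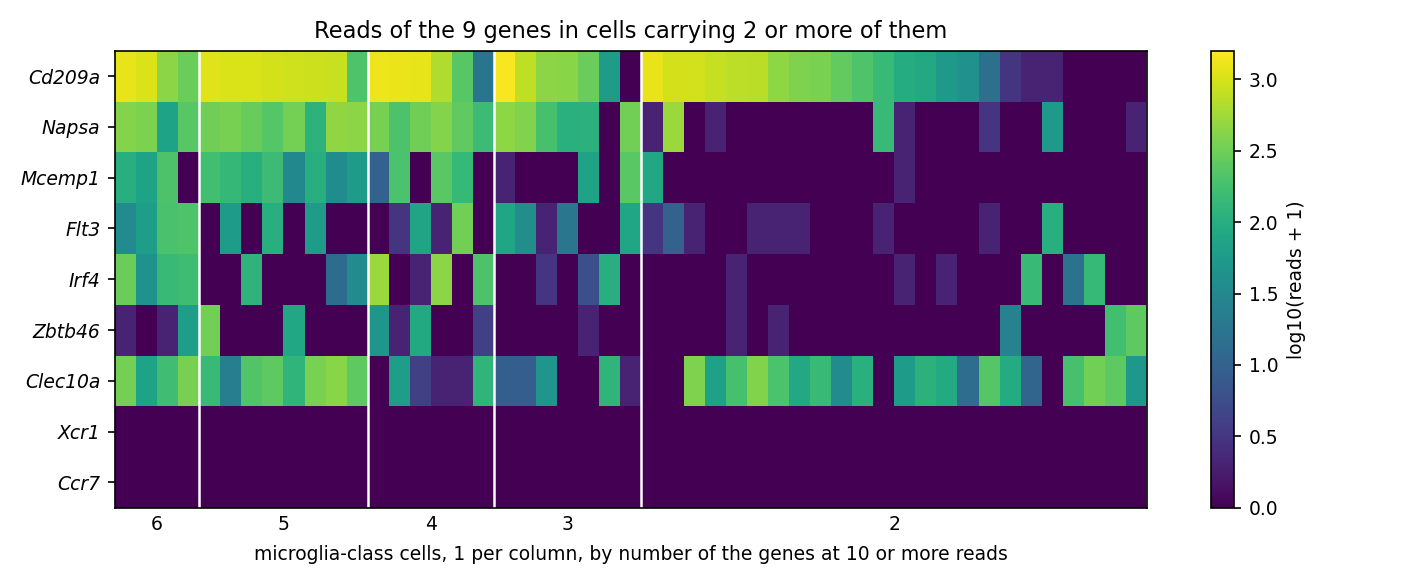
Colour gives log10(reads + 1) of the 9 genes (rows) in the 25 cells with 3 or more of them and the 24 cells with 2, 1 cell per column, parted by white lines into 6, 5, 4, 3 and 2 genes carried. Cd209a and Napsa fill most columns of the first 4 blocks, Clec10a and Cd209a most columns of the last, and the rows of Xcr1 and Ccr7 are empty.

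The genes differed in how far their carriers fell among the several-gene cells. The share was 94.1% for Mcemp1 (16 of 17 carriers), 86.7% for Flt3 (13 of 15), 80% for Napsa (24 of 30), 55% for Irf4 (11 of 20), 53.3% for Cd209a (24 of 45), 41.7% for Zbtb46 (5 of 12) and 17.2% for Clec10a (16 of 93). The requirement of 3 genes raises all of these shares. Among pairs, Cd209a and Napsa were carried together by 25 cells, 55.6% of the Cd209a carriers and 83.3% of the Napsa carriers. Napsa accompanied Mcemp1 in 16 of its 17 carriers and Flt3 in 14 of its 15. Cd209a and Clec10a met in 30 cells, of which 14 carried just these 2 genes, the commonest combination of 2 genes. Flt3 and Irf4, in contrast, met in 4 cells, 26.7% of the Flt3 carriers and 20% of the Irf4 carriers.

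The minimum of 10 reads fell in a thin part of the distribution. Over all 9 genes and 280 cells, 374 values were 1 to 4 reads, 17 were 5 to 9, 11 were 10 to 19 and 221 were 20 or more. The values of 1 to 4 reads were unevenly spread over plates. Flt3 had at least 1 read in 81 of 147 microglia-class cells on plate B (55.1%) and in 10 of 133 on plate A (7.52%), whereas 10 or more reads were found in 9 and 6 cells. For Cd209a these were 112 cells on plate B (76.2%) and 54 on plate A (40.6%) with a read, against 29 and 16 with 10 or more. Endothelial cells of plate B showed the same genes at 1 read (Flt3 in 4 of 10 cells, Cd209a in 3 of 10), and the 94 endothelial cells of plates C and D held a single Flt3 read and no Cd209a read. Values of 1 to 4 reads were therefore not taken as expression.

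**Figure D3:**
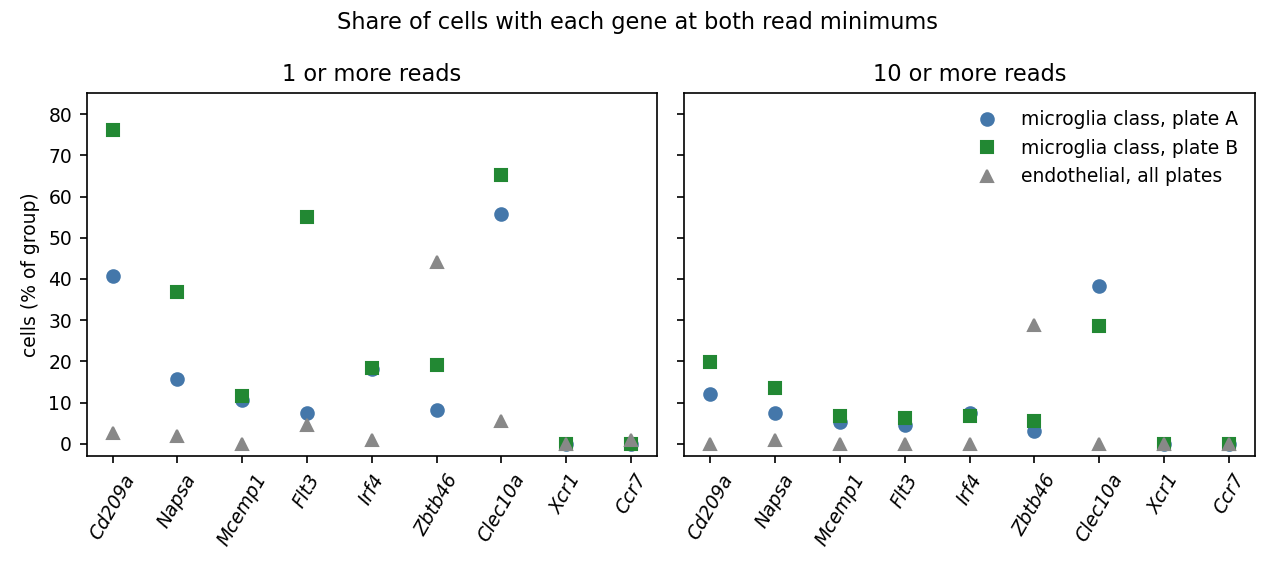
Share of cells (vertical axis, %) with 1 or more reads (left) and 10 or more reads (right) of each gene, for the microglia class on plates A and B and for endothelial cells of all plates. At 1 read the plates part for Flt3 (55.1% on plate B, 7.52% on plate A), and at 10 reads Zbtb46 is the gene with its highest share in endothelial cells.

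What else the several-gene cells expressed was measured by the ratio of their pooled CPM to that of the other 255 microglia-class cells, on the scale log2(CPM + 1), which understates differences of low genes. A gene was counted as higher or lower past 4-fold, among 14262 genes at 1 CPM or more in either group. Genes below 1 CPM in the other 255 cells entered only through the several-gene cells and could not have been counted as lower. Likewise, genes below 1 CPM in the several-gene cells entered only through the other 255 cells and could not have been counted as higher. By this rule 1186 genes (8.32%) were higher and 3427 (24%) were lower, and the median log2 ratio over all genes was -0.46, so the lower side was the larger. These are differences between pools of cells without replicate animals. Of the 7 identity genes measured, which chose the cells, Cd209a, Flt3, Irf4, Napsa and Mcemp1 were higher and Zbtb46 and Clec10a lay between the limits.

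The genes with the highest ratios outside the set included regulators of inflammatory signalling, antigen presentation and adhesion. Tnip3, an inhibitor of NF-κB signalling, stood at 1360 CPM against 21.1, a ratio of 64.5 (60.1 to 69.2), and was at 10 or more reads in 20 of 25 several-gene cells and 5 of 255 others. H2-DMb2, a chain of the MHC class II peptide loader, stood at 902 CPM against 19.4 (ratio 46.5, 43.2 to 50.2) in 21 and 8 cells. Itgb7, the β7 integrin chain that pairs with α4 or αE, stood at 1086 CPM against 23.9 (ratio 45.4) in 19 and 4 cells. Their median reads were 206, 178 and 177 in the several-gene cells and 0 in the others, although single other cells reached 350, 363 and 615 reads. The log2 ratios on plates A and B were 4.84 and 6.24 for Tnip3, 7.05 and 5.04 for H2-DMb2, and 5.84 and 5.25 for Itgb7. The intervals above do not cover such differences between plates.

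Several further genes followed the same division. Cd209c, a lectin gene of the Cd209 cluster, was at 10 or more reads in 18 several-gene cells and 5 others (259 against 7.83 CPM). Klrd1, the CD94 chain of natural killer receptors, was in 14 and 3 cells (256 against 9.14 CPM), and Anxa1, the anti-inflammatory annexin A1, in 14 and 5 (395 against 10.1 CPM). Olfm1, which encodes a secreted glycoprotein, was in 17 and 5 cells, and S100a10, the annexin A2 partner, in 21 and 16. The activity-induced transcription factors Egr3 (518 against 8.00 CPM, 14 and 4 cells), Nr4a3 (498 against 17.3 CPM, 19 and 5 cells) and Bhlhe40 (1405 against 54.7 CPM, 20 and 8 cells) were also higher. In endothelial cells Bhlhe40 was at 564 CPM, between the 2 groups of the microglia class.

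Of 22 genes of a conventional dendritic core list, 19 were measured and 17 of these were higher, none lower, beside 8.32% of all genes. The list was written with earlier results of these data known, so this count is a description. Btla, Ap1s3, Bcl11a, Kit and P2ry10 were below 1 CPM in the other cells and could not have been counted as lower. The list median was 3.66 on the log2 scale, and 3.74 on plate A and 3.79 on plate B. Jaml, an adhesion molecule, was at 10 or more reads in 11 of 25 several-gene cells and 1 of 255 others (283 against 1.28 CPM). Gpr132, a receptor for lysophospholipids and lactate, was in 18 and 6 cells (501 against 24.2 CPM), Dpp4, the CD26 peptidase, in 16 and 3 (342 against 21.9 CPM), and Traf1, an adaptor of TNF receptors, in 17 and 7 (628 against 24.6 CPM). Slamf7, a receptor of the SLAM family, was in 19 and 17 cells, and Ciita, the master activator of MHC class II genes, in 16 and 13. Itgax, the CD11c integrin by which dendritic cells are often sorted, was at 321 against 41.3 CPM in 12 and 10 cells. Bcl11a and P2ry10 were in 5 and 8 several-gene cells and in none of the others.

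Coverage of the core list was partial in any 1 cell. The several-gene cells held 0 to 11 of its 22 genes at 10 or more reads (median 7), and 13 of the 22 genes were at that level in at least 5 of the 25 cells. Cells with 2 of the identity genes held 0 to 5 core genes, those with 1 held 0 to 6 and those with none 0 to 3, with medians of 0 in each. At least 4 core genes were found in 21 of 25 several-gene cells and in 5 of the other 255. Btla, Ap1s3 and Kit were called higher from 3, 1 and 2 cells.

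All 14 genes of the MHC class II and costimulation list were measured. Of these, 3 were higher and none lower, beside 8.32% higher and 24% lower among all genes. The list median was 1.86. The classical chains H2-Aa (7194 against 1865 CPM), H2-Ab1 (6252 against 1709 CPM) and H2-Eb1 (5908 against 1647 CPM) had ratios of 3.59 to 3.86, short of 4-fold, and the invariant chain Cd74 (8158 against 3089 CPM) one of 2.64. H2-Aa was at 10 or more reads in all 25 several-gene cells and in 166 of the others. The genes past 4-fold were H2-DMb2 and the chains of the loading regulator H2-O, H2-Oa (312 against 26.0 CPM) and H2-Ob (587 against 49.6 CPM). Cd83, a maturation marker, stood at 1860 against 494 CPM, while the costimulatory ligand gene Cd86 stood at 113 against 391 CPM and Cd80 at 22.1 against 44.4 CPM.

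Markers of the branches of dendritic cells gave mixed counts, beside 8.32% higher and 24% lower among all genes. Of 9 cDC2 genes measured, 4 were higher and 1 lower (median 1.11): the lectin gene Mgl2 was at 1775 against 324 CPM in 24 several-gene cells and 72 others, beside Tnip3, Itgb7 and Ltb. Clec4a4 was the lower one, with no read against 3.18 CPM, so it could not have been counted as higher. Sirpa, an inhibitory receptor shared with macrophages, was at 527 against 1419 CPM. Of 10 cDC1 genes measured, 4 were higher and 3 lower (median 0.59), a lower share near the 24% of all genes. Among these, Naaa (972 against 170 CPM), Wdfy4 (418 against 81.2 CPM) and Cd24a (189 against 3.62 CPM, in 7 and 1 cells) were higher. The cDC1 adhesion gene Cadm1 (at 10 or more reads in no several-gene cell and 31 others) and the transcription factor Irf8 (117 against 913 CPM) were lower. So was Tlr3, which had no read against 33.6 CPM and could not have been counted as higher. Clec9a, a receptor for dead cells, was at 8.30 against 7.42 CPM. The cDC1 median was 0.73 on plate A and -0.40 on plate B.

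Of 8 genes measured from a list of mature migratory dendritic cells, 5 were higher, beside 8.32% of all genes. However, 4 of those 5 (Ccl22, Ccl5, Socs2 and Cd200) came from 1 several-gene cell each at 10 or more reads. The fifth, Ccl17, which encodes a ligand of CCR4, was in 7 several-gene cells and no other (115 against 0.145 CPM). Fscn1, the actin bundler of migrating dendritic cells, was at 43.0 against 137 CPM. The list median was -0.10 on plate A and 1.92 on plate B. Of 6 plasmacytoid dendritic cell genes measured, 1 was higher (Spib, in 2 cells) and 1 lower, Siglech, which microglia also express (5.98 against 838 CPM). Single genes of so short a list say little beside the 8.32% higher and 24% lower among all genes.

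Of 11 cytokine receptors of dendritic cell growth, 4 were higher, beside 8.32% of all genes, and 3 lower, a share near the 24% of all genes. The list median was 0.59, with -0.90 on plate A and 1.04 on plate B. The GM-CSF receptor gene Csf2ra stood at 971 against 235 CPM, past 4-fold in the pool and on plate B (log2 ratio 2.45) but not on plate A (0.95), and Csf2rb stood at 445 against 151 CPM. Csf1r, on which microglia depend, stood at 582 against 5096 CPM, with reads of 2 to 1251 (median 18) in the several-gene cells. Il1r2, the decoy receptor for interleukin 1, was at 10 or more reads in 11 several-gene cells and 1 other (354 against 0.892 CPM). Of the 8 chemokine receptors measured none was higher and 2 were lower, Cx3cr1 (145 against 2346 CPM) and Cxcr3, a lower share near the 24% of all genes. Ccr2 was at 731 against 226 CPM in 18 and 27 cells. Of 17 transcription factors of dendritic cells, Bcl11a and Runx3 were higher and Irf8 was lower, a higher share near the 8.32% of all genes, and PU.1 (Spi1) was at 930 against 850 CPM.

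Although labelled microglia, the several-gene cells as a pool had low levels of microglia core genes. Single cells held 1 to 11 of the 18 at 10 or more reads (median 5), and the other cells 3 to 18 (median 10). All 18 microglia core genes were lower in the several-gene cells than in the 255 others, with a median of -4.59 beside -0.46 for all genes, and 24% of all genes were lower. Tmem119 stood at 5.48 against 931 CPM and P2ry12 at 46.0 against 1245 CPM. Sall1, a transcription factor of microglia, stood at 0.830 against 131 CPM, at 10 or more reads in no several-gene cell and in 38 others. Being below 1 CPM in the several-gene cells, Sall1 could not have been counted as higher. Of 19 macrophage core genes 15 were lower and none higher (median -3.17), with Mertk at 1.66 against 394 CPM and Fcgr1, the CD64 receptor, at 15.8 against 544 CPM. Among 14 border macrophage genes 11 were lower (median -2.96). The plate A medians were -3.15 for the microglia core, -2.35 for the macrophage core and -1.50 for the border macrophage genes. On plate B they were -5.90, -4.09 and -6.07. The genes with the lowest ratios by the naming rule included the transporter Slco2b1 (4.82 against 732 CPM, 152 times lower), the cholesterol exporter Abca1 (3.82 against 300.1 CPM), Trem2 (26.9 against 1251 CPM) and the prostaglandin and leukotriene synthases Hpgds and Ltc4s.

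**Figure D4:**
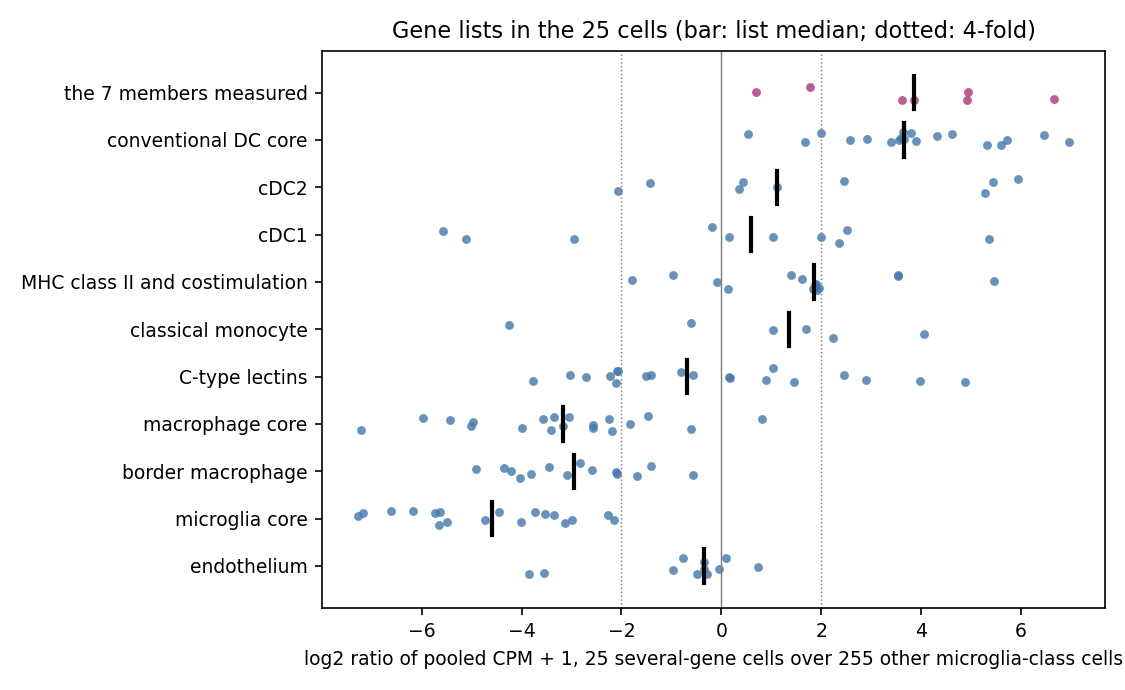
Each point is the log2 ratio of CPM + 1 (horizontal axis) of 1 measured gene in the 25 several-gene cells over the other 255 microglia-class cells, by gene list (rows), with the list median as a bar and 4-fold as dotted lines. The medians are 3.66 for the conventional dendritic core and -4.59 for the microglia core.

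The remaining macrophage reads were not spread evenly over the several-gene cells. A single cell, well M13 of plate A, held Cd209a (56 reads), Irf4 (104) and Clec10a (123) without Napsa, Mcemp1 or Flt3, and it had no dendritic core gene, 13 of 19 macrophage core genes and all 14 border macrophage genes at 10 or more reads. It gave 97.5% of the Lyve1 reads, 90.6% of the Pf4 reads and 90.8% of the Stab1 reads of the 25 cells. Of the genes named above, without this cell Fcgr1 was at 1.03 CPM, P2ry12 at 7.19, Trem2 at 8.21, Abca1 at 1.54, Cx3cr1 at 105 and Csf1r at 385 CPM, all further below the other 255 cells. Without it the medians fell to -3.88 for the macrophage core, -5.65 for the microglia core and -5.83 for the border macrophage list (12 of 14 lower), and the dendritic core was at 3.71 with the same number of genes higher. Without the 3 several-gene cells that carried more macrophage than dendritic core genes, 16 dendritic core genes were higher (median 3.81), and in the class II and costimulation list 5 genes were higher and 1 lower, in place of 3 and none. Without well M13 alone that list had 3 higher and 1 lower.

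Counted cell by cell, dendritic core genes outnumbered macrophage core genes in 20 of the 25 several-gene cells, equalled them in 2 and fell below them in 3. The same count gave 3 of 24 cells with 2 identity genes, 0 of 75 with 1 and 0 of 156 with none. The summed level of the dendritic core list in a cell had a median of 4297 CPM (11.3 to 7972) in the several-gene cells and 36.2 CPM in cells with 2 identity genes. For the macrophage core these medians were 1634 and 16759 CPM. Cells with 2 of the identity genes thus lay nearer to cells with fewer of them than to the several-gene cells in both measures.

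**Figure D5:**
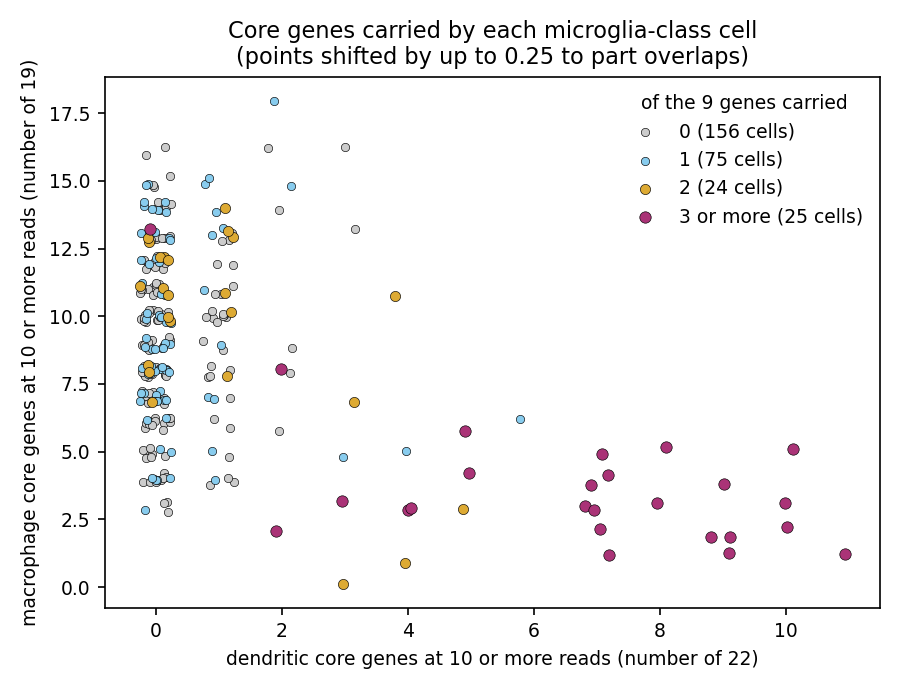
Each point is 1 of the 280 microglia-class cells, with the number of dendritic core genes (horizontal axis, of 22) and macrophage core genes (vertical axis, of 19) at 10 or more reads, coloured by how many of the 9 identity genes it carried. Of the 25 several-gene cells, 21 sit at 4 or more dendritic core genes, and 1 sits at 0 with 13 macrophage core genes.

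Napsa or Mcemp1 also occurred in 7 cells outside the several-gene group. Of these, 5 held 3 or 4 dendritic core genes at 10 or more reads, and 2 (wells O21 of plate A and I19 of plate B) held 0 and 1. In 2 plate B cells, wells M9 and O2, dendritic core genes outnumbered macrophage core genes (3 against 0 and 4 against 1), and another cell of plate B, well L7, had 4 against 11 with 997 Cd209a and 517 Napsa reads.

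The lectins were shared with cells that carry Mrc1, the mannose receptor of border macrophages. Of 186 cells with 10 or more Mrc1 reads and fewer of Sall1, 80 had Clec10a and 34 had Cd209a at 10 or more reads, and 16 were several-gene cells. Of 36 cells with Sall1 and not Mrc1, none had Clec10a, Cd209a, Napsa or Mcemp1 at that level, and Flt3, Irf4 and Zbtb46 were each at that level in 1. Of 56 cells with neither, 13 had Napsa and 9 were several-gene cells.

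The gene whose level followed each identity gene most closely over the 280 microglia-class cells was found by Pearson's r of log2(CPM + 1), among 7965 genes at 10 or more reads in at least 10 cells. It was Cd209c for Cd209a (r = 0.68) and for Irf4 (0.41), Napsa for Flt3 (0.49), S100a4 for Napsa (0.79), Dpp4 for Mcemp1 (0.68), Kcne3 for Zbtb46 (0.31) and Clec4n for Clec10a (0.45). The points share libraries and differ in depth, and most cells are at or near 0 reads of the rarer genes, so these values only describe the cells. Clec4n, a lectin known as Dectin-2, was itself at 70.1 CPM in the several-gene cells and 330 CPM in the others. This was the opposite order to the pooled levels of Clec10a, which hardly differed between the groups on plate B.

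Outside the monocyte lists, markers of other cells that the wells could hold were, with few exceptions, not higher. The same was true of most genes (8.32% of all genes were higher and 24% lower). None of 5 T cell, 4 B cell, 2 neutrophil and 4 mural cell genes measured was higher, and of 2 natural killer genes only Klrd1 was. No mast cell gene was measured in either group. Of 11 endothelial genes none was higher and 2 were lower, and their summed level had a median of 57.2 CPM in the several-gene cells. Of 6 classical monocyte genes measured, S100a4 (123 against 6.48 CPM, in 22 and 9 cells) and Ms4a4c were higher, and Ly6c2, the gene of the Ly6C antigen, was below 1 CPM in both groups. Without the plate B cell with the most cell cycle genes, well L11, 1 of the 6 was higher. The summed level of the full classical monocyte list in a cell had a median of 1094.5 CPM in the several-gene cells and 10.2 CPM in the others. Several-gene cells held a median of 2 of its 11 genes at 10 or more reads, the others 0. Ccr2, given above, is on this list. Of 10 non-classical monocyte genes, Nr4a1, which is also an early response gene, was higher (3715 against 421 CPM) and 3 were lower.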

How the data were processed

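The authors deposited unnormalized counts, 1 whole number for each gene in each cell. A deposited cell table gives each cell's class code, which agreed in number with the labels. The tools listed, with no role given, are Subread 1.4.6-p5, featureCounts and SAMtools 1.16.1, with build GRCm39, per the submitters' processing notes. Which aligner and annotation were used, and whether strand was, is not given in the sources used here, so antisense and near-identical genes are uncertain. Reads were summed per group and divided by all gene reads with Python 3.11.15, numpy 2.4.6, pandas 2.3.3 and scipy 1.17.1. The calculation was tested on simulated Poisson counts with set fold changes, in which the cells of a group shared a common mean. Real cells differed far more from each other, so that test does not check the intervals for these data. A pseudocount of 1 CPM was used, and a count of 0 was given the limit of 3 counts. No cell was filtered and no doublet caller was run.

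The identity genes and all 24 gene lists were chosen with earlier results of these data known. Genes outside the lists were named by a fixed rule: the 12 largest and 12 smallest ratios among genes at 50 CPM and at 10 or more reads in 50% of cells of the higher group, leaving out mitochondrial, ribosomal protein, immunoglobulin and predicted genes. A gene most like each identity gene was named from its 3 highest correlations. The genes between Mcemp1 and Cd209a were named for their position. Alternatives covered the read minimum, number of genes required, pseudocount, filter, plate, depth and single cells.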

Additional observations from a re-analysis of the deposited data

How the results depend on the processing

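The share of microglia-class cells with 3 or more identity genes stayed between 6.43% and 10.9% with 5 or 20 reads or 50 CPM as the minimum, with 4 or more genes required, with any 1 gene left out, within plates and after thinning. It moved to 35.7% when 1 read was enough and to 17.5% when 2 or more genes were enough. The number of genes at least 4-fold higher was 436 with a pseudocount of 10 CPM and 949 to 1524 in the remaining alternatives. The number at least 4-fold lower was 812 with a pseudocount of 10 CPM, 2235 with a filter of 10 CPM, 2154 with cells of 2 or more genes, and 3277 to 4859 otherwise. Among the 7 identity genes and the 24 genes named by the rule, Zbtb46 alone changed sign. Its log2 ratio went from 1.78 to -3.24 on plate A, where no several-gene cell carried it, and the cause was not tested. The size of many ratios depended on the plate. Log2 ratios on plates A and B were 3.16 and 8.00 for Anxa1, 7.91 and 3.97 for Bhlhe40, and -3.42 and -7.88 for Fcgr1. They were closer for others, such as Olfm1 (5.36 and 5.08). Leaving out single cells was chosen after seeing the data. No paired analysis was possible because cells carry no shared replicate numbers and no test was made. With 25 cells, 1 class sample and no animals named, a gene seen in few cells may rest on any of them.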

Other observations

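Cell cycle genes were higher in the several-gene cells chiefly through 1 cell. Of 9 measured genes of the list 8 were higher, beside 8.32% of all genes. The list median was 4.65, but it was 0.05 on plate A and 5.26 on plate B. A plate B cell, well L11, which carried 6 of the identity genes, had 8 cell cycle genes at 10 or more reads, and no other microglia-class cell had more than 2. Without it 3 of the 9 genes were higher and the median was 0.74. Leaving out Pcna, 9 of 25 several-gene cells and 14 of 255 others had at least 1 of these genes at 10 or more reads.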
